A study of Drosophila melanogaster with 18 samples.

Results

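The heads of adult male Drosophila melanogaster were compared with the rest of the male body, the thorax together with the abdomen. The comparison rests on 4 of the 18 libraries of the series, 2 of male heads and 2 of male bodies, taken by their labels. All flies were of the isogenic strain w1118 (BDSC 5905), which carries a mutation of the white eye pigment transporter and served as the wild type, and the adults were 24 h old by the labels and the methods, while the study's results text gives a younger age for adults. The labels describe heads and bodies as broken apart in liquid nitrogen and the RNA as polyA RNA, and they name no treatment and no transgene. Neither the number of flies in a library nor whether the 2 libraries of a group came from separate cultures is given in the sources used here, so the p-values measure only the spread between these libraries. The other adult parts of the series (female heads, female bodies, testes and ovaries, 2 libraries each, same strain and age) entered the same fit and were used for the spread and for the comparison with females.

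The fly head holds the brain, the compound eyes and ocelli, the antennae and the mouthparts, with fat body, muscle and cuticle around them. A large part of its RNA comes from photoreceptors, which turn light into an electrical signal through rhodopsin, a Gq protein, phospholipase C and the TRP channels, and from the neurons and glia of the brain. The thorax and abdomen hold the flight and leg muscles, the ventral nerve cord, the gut, the Malpighian tubules that serve as kidneys, most of the fat body, the oenocytes that make cuticle hydrocarbons, and in males the testes, seminal vesicles, accessory glands and ejaculatory duct and bulb. In whole parts of animals such as these, fewer cells of a type and less RNA per cell cannot be told apart.

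The male head libraries held 37198249 and 60291385 counts and the male body libraries 39128363 and 51088112. At least 10 counts were found for 10174 and 10094 genes in the heads and for 11953 and 11920 genes in the bodies. Levels are given as CPM, the counts of a gene scaled to a common library size, with the library sizes adjusted by the trimmed mean of M values (TMM). CPM is not divided by gene length, so levels of different genes were not compared. The summed level of the photoreceptor markers was 43542 and 32106 CPM in male heads, against 131 and 78.5 CPM in male bodies, and that of the midgut markers 63.4 and 51.2 CPM in male heads, against 4942 and 10974 CPM in male bodies. Of the 7 midgut markers 6 were lower in heads and 1, lab, was higher, with 13.6 and 13.6 CPM in male heads, against 5.0 and 5.2 CPM in male bodies. The dosage compensation RNA lncRNA:roX1, made in males, had 1810.5 and 2298 CPM in male heads, against 271 and 495 CPM in male bodies, and 11.4 and 12.5 CPM in female heads and 5.37 and 1.74 CPM in female bodies. The eye gene Arr2 and the neuronal gene elav lie wholly under other genes in the count table, are listed at 0 in every library and were not measured.

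Genes of one part of the body were also counted in the other, and digestive, seminal fluid and rhodopsin genes more so in libraries numbered 1 than in those numbered 2. Over the 13 digestive proteases with at least 100 CPM in both body libraries, the level in the heads was a median of 0.886% of the body level among libraries numbered 1 and 0.277% among those numbered 2. For 13 seminal fluid genes these medians were 0.412% and 0.114%. In the other direction, 5 rhodopsin genes reached a median of 0.218% of their head level in body library 1 and 0.114% in body library 2. For 16 phototransduction genes, which include genes also used outside the eye, the medians were 1.08% in body library 1 and 1.07% in body library 2. The part of these traces in the results was not tested. Markers of female tissue, such as yolk and egg shell proteins, summed to 251 and 165 CPM in male heads and 140.3 and 111 CPM in male bodies.

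Of 12597 genes tested, 2639 (20.9%) were called higher and 3858 (30.6%) lower in male heads than in male bodies, 51.6% in all. A gene was called when edgeR's quasi-likelihood test gave it an adjusted p under 0.05 and its fold change was 1 or more on the log2 scale in size. A change of at least 4 on the log2 scale was found for 564 genes that were higher in heads and 2667 that were lower, and a change of at least 8 for 43 and 1087 genes. Of the genes tested, 1308 were at or under 3 counts in both head libraries and 170 in both body libraries. Such genes passed the filter on low counts only through libraries in which they were high, and the size of their fitted fold change depends on the prior count, so the numbers of large changes on the 2 sides are not compared here. Among the 9469 genes with at least 10 counts in each of the 4 libraries, 1976 were called higher and 2019 lower. The median log2 fold change was 2.17 among the genes called higher and -6.55 among those called lower. Over all genes it was -0.087, and it moved to -0.20 with DESeq2's size factors, to -0.26 with upper-quartile scaling, to -0.64 without male body 1 and to 0.25 without male body 2. Without male body 1, 1363 genes were called higher and 4328 lower. Without male body 2 these numbers were 2970 and 3277. For 82.9% of the genes the 2 head libraries lay both above or both below the 2 body libraries.

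**Figure D1:**
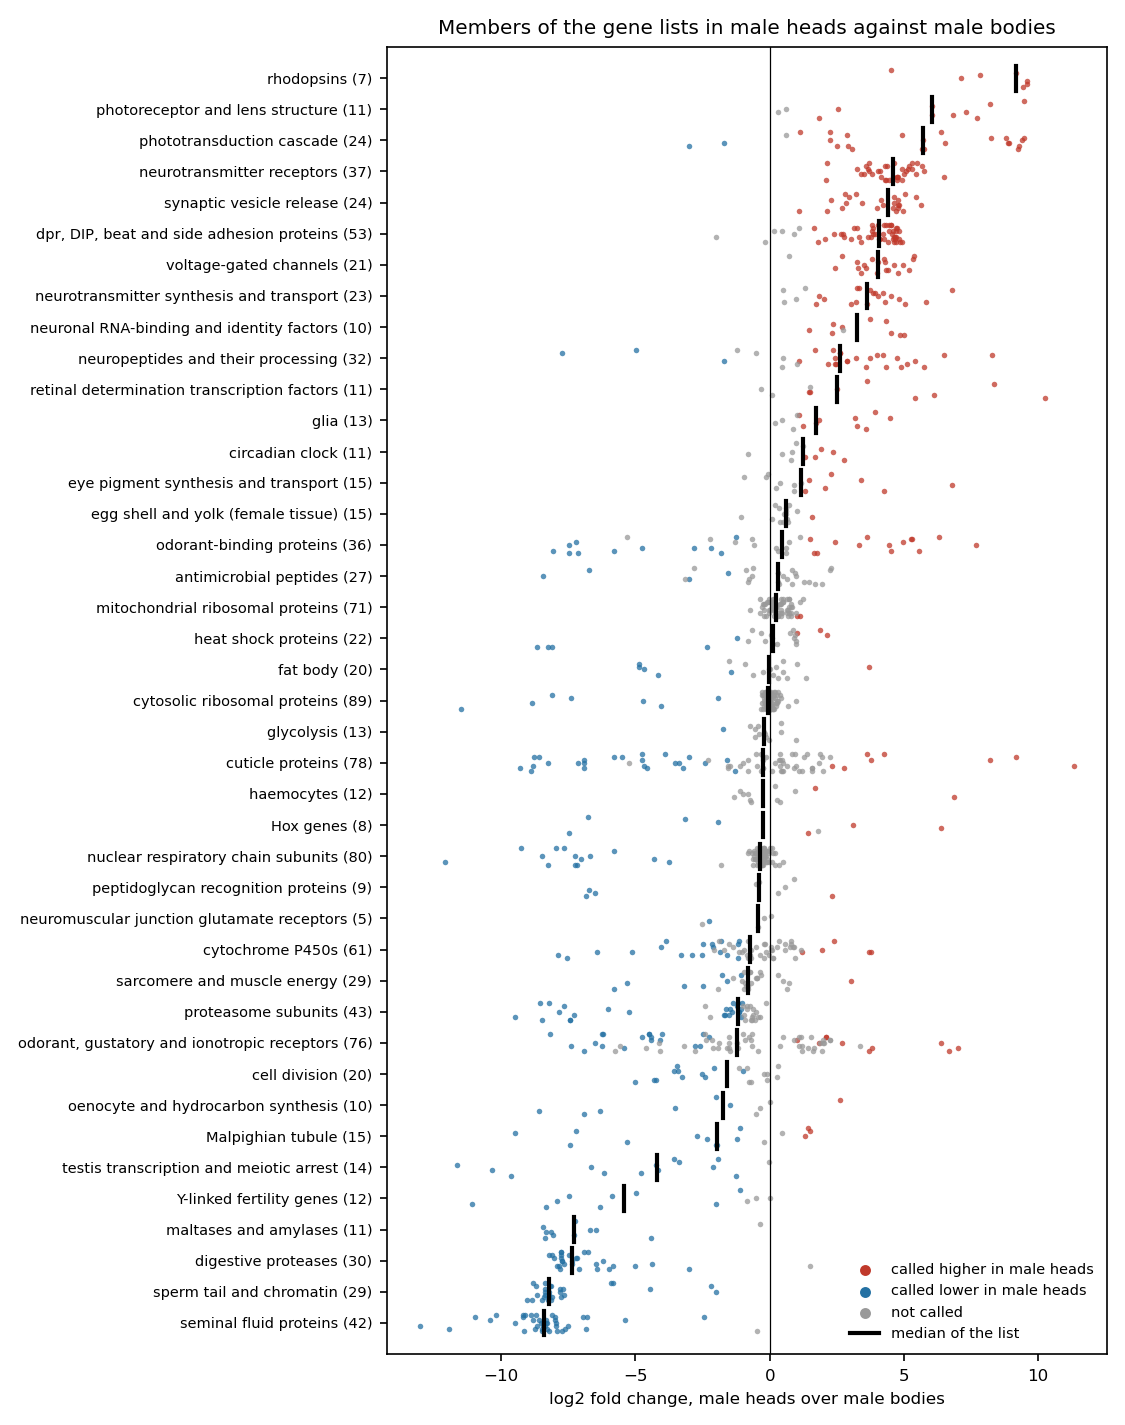
Log2 fold change of each tested member of the gene lists (points, number of tested members in brackets), male heads over male bodies, with the median of each list as a black bar. Eye and neuronal lists lie to the right with medians up to 9.17 for the rhodopsins, and male reproductive and digestive lists lie to the left with medians down to -8.39 for the seminal fluid proteins.

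Every rhodopsin was higher in heads, 7 of 7 beside 20.9% of all genes, with a median log2 fold change of 9.17 against -0.087 over all genes. ninaE (3R:19886255-19888206, minus strand, dm6), which encodes the rhodopsin Rh1 of the outer photoreceptors R1 to R6, had 31000.0 and 21544 CPM in male heads, against 60.1 and 15.2 CPM in male bodies (log2 fold change 9.45 ± 1.18 SE, adjusted p = 0.000253). It took the largest share of the counts in both head libraries, 2.81% and 2.03%. Rh3 and Rh4, the ultraviolet opsins of R7, had 1398 and 1268 CPM in male heads, against 2.26 and 1.26 CPM in male bodies for Rh3, and 701 and 566 CPM in male heads, against 5.57 and 3.54 CPM in male bodies for Rh4. Rh5 and Rh6, the blue and green opsins of R8, had 219 and 181 CPM in male heads, against 0.851 and 0.884 CPM in male bodies for Rh5, and 312 and 222 CPM in male heads, against 0.681 and 0.253 CPM in male bodies for Rh6. The ocellar opsin Rh2 had 67.8 and 79.6 CPM in male heads, against 0 and 0.18 CPM in male bodies, where body library 1 held 0 counts. Rh7, which acts in clock neurons of the brain, had 42.2 and 49.8 CPM in male heads, against 2.26 and 1.77 CPM in male bodies, the smallest change of the family with a log2 fold change of 4.52 against 7.12 to 9.57 in the others. No body library reached the level of a head library for any of the 7. Head and body libraries did not overlap, in one direction or the other, for 82.9% of all genes.

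The cascade behind the opsins differed in the same direction, with 21 of 24 members higher, 2 lower and a median log2 fold change of 5.70. These are 87.5% and 8.3%, beside 20.9% and 30.6% of all genes. The TRP channels that carry the light response stood at 3259.9 and 2545 CPM in male heads, against 7.3 and 1.97 CPM in male bodies for trp (log2 fold change 9.29 ± 1.12 SE, adjusted p = 0.000209), and at 3072 and 2535 CPM in male heads, against 7.51 and 4.17 CPM in male bodies for trpl. ninaC, a myosin and kinase of the rhabdomere, had 4367 and 3475 CPM in male heads, against 9.34 and 3.55 CPM in male bodies, and Arr1, an arrestin that shuts off rhodopsin, had 4704 and 3049.5 CPM in male heads, against 18.4 and 6.91 CPM in male bodies. The scaffold inaD, which holds the cascade together at the membrane, had 1702 and 1293 CPM in male heads, against 3.36 and 0.884 CPM in male bodies (log2 fold change 9.46 ± 1.01 SE, adjusted p = 0.000115). Ggamma30A, the gamma subunit of the visual G protein, had 8134 and 6369.7 CPM in male heads, against 149.9 and 128 CPM in male bodies and a smaller log2 fold change of 5.71. The members that were lower were ninaD, a scavenger receptor that takes up carotenoids, with 8.55 and 6.92 CPM in male heads, against 32.7 and 92.9 CPM in male bodies, and Trpgamma, another channel of the TRPC class, with 1.69 and 1.44 CPM in male heads, against 5.98 and 4.17 CPM in male bodies. The call of Trpgamma was lost without male head 2 (log2 fold change -1.31 with an adjusted p of 0.0852). pinta, a retinoid-binding protein, had 20.5 and 20.5 CPM in male heads, against 10.6 and 16.3 CPM in male bodies and was not called.

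Structural genes of the eye were called higher in 9 of 11 cases (81.8%, beside 20.9% of all genes), with 0 lower and a median of 6.05. retinin and Crys, proteins of the corneal lens, had 3443 and 4298 CPM in male heads, against 7.38 and 3.52 CPM in male bodies for retinin, and 181 and 215 CPM in male heads, against 2.17 and 3.79 CPM in male bodies for Crys. chp, the rhabdomere protein chaoptin, had 285 and 267 CPM in male heads, against 1.3 and 1.33 CPM in male bodies, boss, the ligand that induces R7, had 255 and 265 CPM in male heads, against 2.02 and 2.58 CPM in male bodies, and Cpn, the photoreceptor calcium-binding protein calphotin, had 576 and 664 CPM in male heads, against 1.19 and 0.559 CPM in male bodies. The receptor of boss, sev, had 39.3 and 47 CPM in male heads, against 26.3 and 43 CPM in male bodies and was not called. Among transcription factors of retinal determination and photoreceptor identity, 8 of 11 were higher (72.7%, beside 20.9% of all genes) and 0 lower. gl, required for photoreceptor differentiation, had 104 and 80.4 CPM in male heads, against 0.383 and 0.18 CPM in male bodies (log2 fold change 8.36 ± 0.66 SE, adjusted p = 2.96e-05), and Pph13, a homeodomain factor of rhabdomere genes, had 43.8 and 33.8 CPM in male heads, against 0.0638 and 0 CPM in male bodies (log2 fold change 10.23 ± 0.86 SE, adjusted p = 3.75e-05). The Pax6 genes ey and toy had 84.4 and 80.8 CPM in male heads, against 2.06 and 1.79 CPM in male bodies for ey, and 251 and 235 CPM in male heads, against 3.77 and 3.25 CPM in male bodies for toy. Optix and tsh had 53.4 and 49.7 CPM in male heads, against 47.8 and 48.7 CPM in male bodies for Optix, and 16.9 and 19 CPM in male heads, against 19 and 25.6 CPM in male bodies for tsh, and neither was called. With male body 1 left out, 1 factor was called lower.

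Eye pigment genes were called higher in part. Of 15 tested, 7 were higher and 0 lower, with a median of 1.16, in a strain whose eyes lack pigment. The share called higher was 46.7%, and 45.5% for the clock genes below, beside 20.9% of all genes. The pteridine genes were among the higher ones, with 1150.3 and 674 CPM in male heads, against 98.6 and 72.9 CPM in male bodies for Pu, the GTP cyclohydrolase that opens the pathway, and 98.6 and 70.7 CPM in male heads, against 0.915 and 0.613 CPM in male bodies for se, which acts in the synthesis of the red drosopterins. The ommochrome gene v, tryptophan oxygenase, had 9.47 and 15 CPM in male heads, against 9.4 and 11.3 CPM in male bodies and was not called. Of 11 clock genes 5 were higher and 0 lower, with 130.1 and 109 CPM in male heads, against 15.2 and 20.0 CPM in male bodies for per (log2 fold change 2.77 ± 0.30 SE, adjusted p = 0.000114), 664 and 501 CPM in male heads, against 215 and 255 CPM in male bodies for tim and 131 and 157 CPM in male heads, against 20.1 and 36.4 CPM in male bodies for the PDF receptor Pdfr. Clk, the activator of per and tim, had 44.9 and 56.8 CPM in male heads, against 85.9 and 93.9 CPM in male bodies and was not called. With DESeq2's Wald test or size factors, upper-quartile scaling or at least 10 counts in each of the 4 libraries, 1 pigment gene was called lower. With the last 2 of these settings 1 clock gene was called lower too. Without male body 1 the median was 0.41 for the pigment genes and 0.28 for the clock genes. The number of clock genes called higher was 2 without male body 1 and 9 without male body 2. The call of tim was lost without male body 1 (log2 fold change 0.65 with an adjusted p of 0.25).

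Genes of the synapse and of neuronal excitability were nearly all higher in heads. In all, 24 of 24 tested genes of vesicle release were called higher (median log2 fold change 4.41), as were 37 of 37 neurotransmitter receptors (4.61), 20 of 21 voltage-gated channels (4.02) and 19 of 23 genes of transmitter synthesis and transport (3.61). None of these lists had a member that was called lower. The share of genes called higher over all genes was 20.9%. cpx, the complexin that clamps vesicle fusion, had 7322 and 6392 CPM in male heads, against 297 and 265 CPM in male bodies (log2 fold change 4.61 ± 0.49 SE, adjusted p = 0.000111). The calcium sensor Syt1 had 4364 and 3104 CPM in male heads, against 163 and 125 CPM in male bodies, and the vesicle SNARE nSyb had 3172 and 2874 CPM in male heads, against 107 and 115 CPM in male bodies. The body libraries all held these transcripts, and both head libraries lay above both body libraries for each. Head and body libraries did not overlap, in one direction or the other, for 82.9% of all genes. Summed over the genes of vesicle release, male bodies held 1759 and 1620 CPM and testes 1020 and 940 CPM. The source of these transcripts in the bodies was not tested.

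Acetylcholine is the main fast excitatory transmitter of the fly brain and GABA the main inhibitory one. Rdl, the GABA-gated chloride channel, had 1679.8 and 1582 CPM in male heads, against 55.5 and 52.9 CPM in male bodies (log2 fold change 4.91 ± 0.35 SE, adjusted p = 2.17e-05), and the nicotinic subunits nAChRbeta1 and nAChRalpha6 had 1590.1 and 1155 CPM in male heads, against 58.1 and 45.7 CPM in male bodies for nAChRbeta1, and 622 and 619 CPM in male heads, against 11.9 and 12.4 CPM in male bodies for nAChRalpha6. DopEcR, a receptor for dopamine and ecdysteroids, had 1194 and 849 CPM in male heads, against 29.5 and 22.7 CPM in male bodies. Among channels, the sodium channel para had 1461 and 1445 CPM in male heads, against 46.6 and 59.8 CPM in male bodies (log2 fold change 4.77 ± 0.36 SE, adjusted p = 2.73e-05), and the potassium channel Sh had 2358 and 1644 CPM in male heads, against 111 and 93.6 CPM in male bodies. Gad1, which makes GABA, had 1420.1 and 1219 CPM in male heads, against 111 and 89.5 CPM in male bodies, and Ace, which breaks down acetylcholine, had 925 and 884 CPM in male heads, against 43.4 and 48.6 CPM in male bodies. Some members were not called. The potassium channel KCNQ had 79.1 and 62.3 CPM in male heads, against 36.3 and 50.7 CPM in male bodies, the tyrosine hydroxylase gene ple 362 and 395 CPM in male heads, against 244 and 273 CPM in male bodies and the dopamine transporter DAT 31.2 and 34.6 CPM in male heads, against 25 and 21.3 CPM in male bodies. ple also acts in the tanning of the cuticle.

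The glutamate receptors of the neuromuscular junction, where fly motor neurons excite muscle, had no member called higher. Of 5 subunits 0 were higher and 1 lower (20%, beside 30.6% of all genes), with a median of -0.45. GluRIIC, a subunit required for every such receptor, had 1.99 and 2.2 CPM in male heads, against 7.87 and 12.3 CPM in male bodies (log2 fold change -2.26 ± 0.56 SE, adjusted p = 0.0077), and its call was lost without male body 2 (log2 fold change -1.61 with an adjusted p of 0.0534) and without male head 1 (-2.20 with an adjusted p of 0.0512). GluRIIA, the subunit of high single-channel current, had 8.02 and 9.74 CPM in male heads, against 11.1 and 13.1 CPM in male bodies and was not called. With the replicate number as a block, 2 subunits were called lower. The number was 0 without male body 2.

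Neuropeptide genes and the enzymes that process their precursors were mostly higher. Of 32 tested, 24 were higher and 3 lower (median 2.63), 75% and 9.4%, beside 20.9% and 30.6% of all genes. The prohormone convertase amon had 452 and 412 CPM in male heads, against 15.2 and 14.3 CPM in male bodies (log2 fold change 4.87 ± 0.42 SE, adjusted p = 4.26e-05), and sNPF, a feeding peptide, had 367 and 321 CPM in male heads, against 10.8 and 8.97 CPM in male bodies. The peptides that were lower were Akh, CCHa2 and Burs. Akh, made in the corpora cardiaca beside the anterior gut, had 1.28 and 0.351 CPM in male heads, against 33.6 and 16.8 CPM in male bodies (log2 fold change -4.99 ± 1.01 SE, adjusted p = 0.00279). CCHa2, a peptide of gut and fat body, had 335 and 332 CPM in male heads, against 1221 and 944 CPM in male bodies, and its call was lost without male body 2 or either head library (log2 fold changes from -1.71 to -1.42). The cuticle-tanning hormone Burs, made in the ventral nerve cord, had 0 counts in both head libraries and at least 7.32-fold more in bodies, at 0.298 and 0.74 CPM. Without male body 2 or either head library Burs was not called (adjusted p from 0.0546 to 0.0799).

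Nplp3, a peptide precursor that is abundant in adult tissues, had 15374 and 13507 CPM in male heads, against 5066 and 4571 CPM in male bodies and a log2 fold change of 1.58, and its call was lost without male body 1 (1.12 with an adjusted p of 0.195) and without male head 1 (1.49 with an adjusted p of 0.0741). It was second to ninaE in share of counts in both head libraries. Glial genes were higher in 9 of 13 cases with 0 lower and a median of 1.72, 69.2% higher beside 20.9% of all genes. Gat, the GABA transporter of astrocyte-like glia, had 259 and 239 CPM in male heads, against 28.3 and 23.5 CPM in male bodies (log2 fold change 3.27 ± 0.44 SE, adjusted p = 0.000371). Gs2, glutamine synthetase, had 2934 and 3032 CPM in male heads, against 840.0 and 974 CPM in male bodies, and Eaat1, the glial glutamate transporter, had 568 and 596 CPM in male heads, against 158 and 167 CPM in male bodies. Both lost their call without male body 1, where log2 fold changes were 1.07 with an adjusted p of 0.121, and 1.26 with an adjusted p of 0.128, and the number of glial genes called higher was then 5. Gli and loco, with 35.3 and 46.8 CPM in male heads, against 28.5 and 43.2 CPM in male bodies for Gli, and 46.3 and 50.0 CPM in male heads, against 31.5 and 38 CPM in male bodies for loco, were not called.

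Neuronal RNA-binding proteins and identity factors were higher in 9 of 10 cases (median 3.23, 0 lower), 90% beside 20.9% of all genes. fne, a neuronal protein of the ELAV family, had 667 and 1346 CPM in male heads, against 19.5 and 44 CPM in male bodies (log2 fold change 4.98 ± 0.67 SE, adjusted p = 0.000361), with the head libraries not close to each other but both above both body libraries. pros, a homeodomain factor of neurons and glia, had 1225 and 1623 CPM in male heads, against 50.7 and 74.5 CPM in male bodies, and the splicing regulator Srrm234 had 1429 and 1034 CPM in male heads, against 95.3 and 88.5 CPM in male bodies (log2 fold change 3.74 ± 0.36 SE, adjusted p = 7.04e-05). Among the immunoglobulin proteins of the dpr, DIP, beat and side families, which label synaptic partners, 47 of 53 were higher and 0 lower, with a median of 4.07. The share called higher was 88.7%, beside 20.9% of all genes. Summed over these families, male heads held 5583 and 5036 CPM, male bodies 971 and 730 CPM and testes 1756 and 1432 CPM. dpr12 had 473 and 435 CPM in male heads, against 18.5 and 16.7 CPM in male bodies, beat-IIa 251 and 206 CPM in male heads, against 10.4 and 8.08 CPM in male bodies, and side-VI 211 and 184 CPM in male heads, against 8.96 and 6.49 CPM in male bodies. The replicate block and a fit of only the 4 libraries compared each gave 1 member of these families called lower. So did DESeq2's Wald test and size factors, upper-quartile scaling and the filter of at least 10 counts in each of the 4 libraries. Many of these genes overlap other genes. Restricted to genes that overlap no other gene, 16 of 16 receptors and 14 of 18 of these adhesion genes were called higher.

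**Figure D2:**
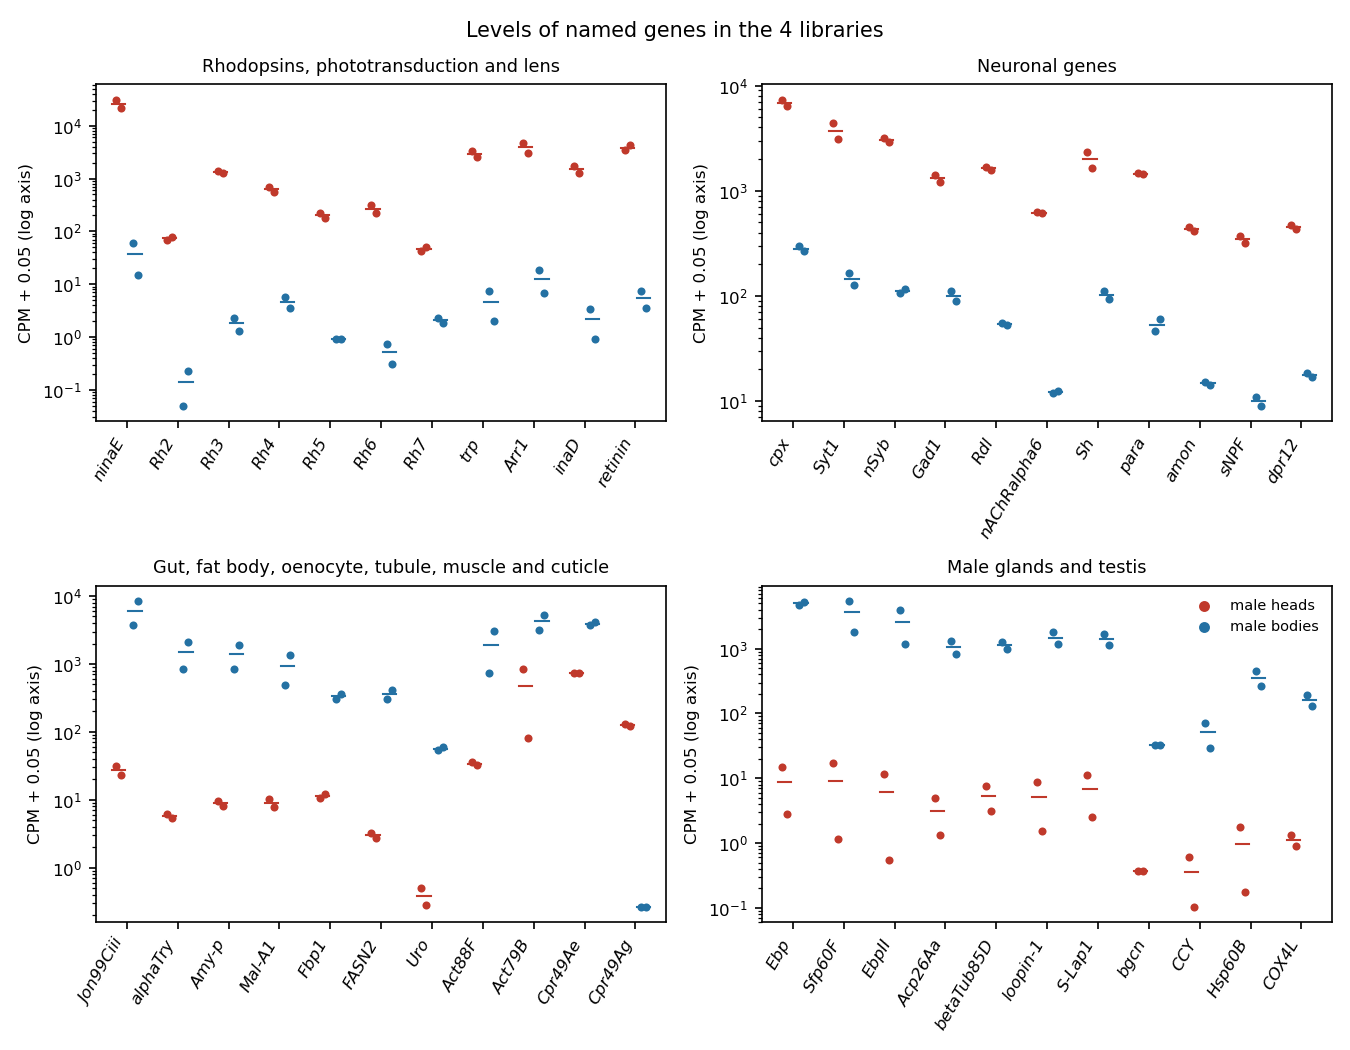
Level of named genes in each of the 4 libraries (points, CPM + 0.05 on a log axis) and the mean of each group (bars), male heads left of male bodies. In bodies the visual genes lie between 0 (Rh2) and 60.1 CPM (ninaE) and the neuronal genes between 8.97 (sNPF) and 297 CPM (cpx), and in heads the male gland and testis genes lie between 0.0527 (CCY) and 16.9 CPM (Sfp60F), head library 1 above head library 2 for all of them.

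Odorant-binding proteins, small secreted proteins known from the antenna, had 14 of 36 tested members higher and 11 lower (median 0.44). These are 38.9% and 30.6%, beside 20.9% and 30.6% of all genes. Obp19d and Obp49a, a binding protein of taste organs, had 669 and 610.2 CPM in male heads, against 20.4 and 12.1 CPM in male bodies for Obp19d, and 137 and 129 CPM in male heads, against 1.85 and 1.48 CPM in male bodies for Obp49a (log2 fold change 6.31 ± 0.37 SE, adjusted p = 1.45e-05). Obp56f, Obp22a and Obp99a lay on the side of the body, with 1.54 and 1.49 CPM in male heads, against 47.8 and 33.8 CPM in male bodies for Obp56f, 0.386 and 0.0351 CPM in male heads, against 29.7 and 23.1 CPM in male bodies for Obp22a, and 0.594 and 0.0703 CPM in male heads, against 59.9 and 48.9 CPM in male bodies for Obp99a. The testis libraries held 113 and 74.7 CPM of Obp56f, 81.2 and 55.1 CPM of Obp22a and 163 and 118 CPM of Obp99a. The level of Obp44a, 1560.3 and 1554 CPM in male heads, against 499 and 499 CPM in male bodies, was called higher, and the call was lost without male body 1 (1.10 with an adjusted p of 0.211) and without male head 1 (1.64 with an adjusted p of 0.0541). With male body 1 left out, 8 binding proteins were called higher.

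The chemosensory receptors had low counts, and 76 of 180 passed the filter on low counts. Of these 10 were higher and 19 lower, or 13.2% and 25%, beside 20.9% and 30.6% of all genes. At or under 3 counts in both libraries of the group were 24 of the 76 in heads and 6 in bodies, and the direction of the list depended on the filter. Its median was -1.21 over the tested members, 0 with no filter, and 0.69 over the 18 members with at least 10 counts in each of the 4 libraries, of which 5 were higher and 4 lower. Among members that overlap no other gene 14 were higher and 15 lower. The coreceptors Orco and Ir76b, which pair with tuned odorant and ionotropic receptors, had 4.16 and 3.27 CPM in male heads, against 0.617 and 0.541 CPM in male bodies for Orco, and 5.14 and 4.97 CPM in male heads, against 0.0213 and 0.0902 CPM in male bodies for Ir76b (log2 fold change 6.40 ± 1.02 SE, adjusted p = 0.000871). Among receptors called lower, Ir41a had 1.42 and 1.37 CPM in male heads, against 12.3 and 7.14 CPM in male bodies and 31.9 and 20.8 CPM in testes, and Gr59a had 0.0297 and 0.0351 CPM in male heads, against 1.45 and 1.59 CPM in male bodies and 5.38 and 3.55 CPM in testes. Leaving out male body 1 left 3 receptors called higher, and leaving out male head 2 left 9 called lower.

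The Hox genes, which set the identity of segments along the body axis, fell on both sides. Of the 8, 3 were higher and 4 lower in heads, 37.5% and 50%, beside 20.9% and 30.6% of all genes. Dfd, the gene of the mandibular and maxillary segments, had 41.4 and 48.6 CPM in male heads, against 0.681 and 0.415 CPM in male bodies (log2 fold change 6.36 ± 0.44 SE, adjusted p = 2.01e-05). Scr, of the labial segment and the prothorax, had 23.6 and 30.6 CPM in male heads, against 3.23 and 3.03 CPM in male bodies (log2 fold change 3.11 ± 0.54 SE, adjusted p = 0.00131). lab, which acts in the intercalary segment of the head and in the middle midgut, had 13.6 and 13.6 CPM in male heads, against 5.0 and 5.2 CPM in male bodies, and its call was lost without male body 1 (0.85 with an adjusted p of 0.27) and without male head 1 (1.42 with an adjusted p of 0.0691). pb, the gene of the mouthparts, had 12.8 and 12.3 CPM in male heads, against 4.36 and 2.89 CPM in male bodies and was not called (log2 fold change 1.79, adjusted p = 0.0548), whereas with the replicate number as a block its adjusted p was 0.0157, and in the other alternatives that called it between 0.00312 and 0.0438.

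The genes of thorax and abdomen were lower in heads. Antp, of the thorax, had 8.19 and 4.85 CPM in male heads, against 26.6 and 22.8 CPM in male bodies (log2 fold change -1.92 ± 0.34 SE, adjusted p = 0.00142), and Ubx, of the posterior thorax and anterior abdomen, had 1.78 and 0.949 CPM in male heads, against 11.7 and 12.3 CPM in male bodies (log2 fold change -3.15 ± 0.68 SE, adjusted p = 0.00382). abd-A, of the abdomen, had 0.327 and 0.299 CPM in male heads, against 28.8 and 38.8 CPM in male bodies (log2 fold change -6.75 ± 0.43 SE, adjusted p = 1.73e-05), and Abd-B, of the posterior abdomen and genitalia, had 0.237 and 0.211 CPM in male heads, against 34.7 and 45.5 CPM in male bodies (log2 fold change -7.48 ± 0.50 SE, adjusted p = 1.87e-05). The head and body libraries overlapped for none of the 8 genes, pb included, and they did not overlap for 82.9% of all genes either. The fitted changes of Antp, Ubx, abd-A and Abd-B increased in size in that order, and those of abd-A and Abd-B differed by less than the sum of their SEs. In testes there were 21 and 38.2 CPM of abd-A and 24.2 and 46.5 CPM of Abd-B.

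**Figure D3:**
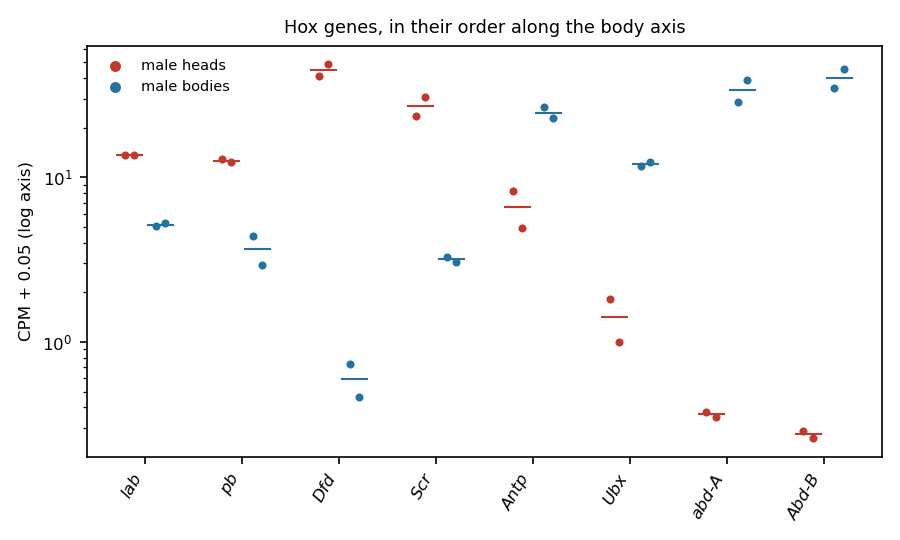
Level of the Hox genes in each library (points, CPM + 0.05 on a log axis) with group means (bars), male heads left of male bodies, in the order of the genes along the body axis. Heads lie above bodies for lab, pb, Dfd and Scr and below them for Antp, Ubx, abd-A and Abd-B, which spans log2 fold changes from 6.36 to -7.48.

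Genes of the male reproductive tract lay on the side of the body. Of 3858 genes lower in heads, 2711 (70.3%) had their highest mean level of the 6 adult parts in testes and 663 (17.2%) in male bodies. Ovaries held the highest mean level for 605 (22.9%) of the 2639 genes called higher, and male heads for 1376 (52.1%). The shares of all tested genes that were highest in each part were not worked out. None of these shares, the 70.3% included, has a background beside it, and they are descriptions only. Of the seminal fluid genes 41 of 42 were lower (median log2 fold change -8.39), of the genes of sperm tail and sperm chromatin 29 of 29 (-8.20), and of the testis transcription and meiotic arrest genes 13 of 14 (-4.20), against a background of 30.6%. None of these lists had a member called higher. At or under 3 counts in both head libraries were 10 of the 42, 1 of the 29 and 3 of the 14. These members passed the filter on low counts only through libraries in which they were high. With at least 10 counts in each of the 4 libraries, 15 of 16, 19 of 19 and 8 of 9 were lower. The accessory gland markers summed to 22.3 and 2.86 CPM in male heads, 6484 and 2855 CPM in male bodies and 9779 and 4952 CPM in the testis libraries, so the testis libraries cannot be read as germline alone.

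Ebp and EbpII, proteins of the ejaculatory bulb that form the mating plug, had 15 and 2.72 CPM in male heads, against 4669 and 5283 CPM in male bodies for Ebp (log2 fold change -9.14 ± 1.83 SE, adjusted p = 0.00262), and 11.7 and 0.492 CPM in male heads, against 4008 and 1186 CPM in male bodies for EbpII. Acp26Aa, the accessory gland peptide that stimulates egg laying, had 4.93 and 1.3 CPM in male heads, against 1298 and 840.2 CPM in male bodies (log2 fold change -8.43 ± 1.68 SE, adjusted p = 0.00259), and Sfp60F had 16.9 and 1.12 CPM in male heads, against 5403 and 1838 CPM in male bodies. The 2 body libraries differed here, with body 1 above body 2 for Sfp60F and EbpII, and the head libraries differed in the same order. The calls of Sfp60F and EbpII were lost without male head 2, at log2 fold changes of -7.48 with an adjusted p of 0.0772, and -7.54 with an adjusted p of 0.085. Sfp36F had 0 counts in both head libraries and 31.6 and 9.83 CPM in male bodies, at least 292-fold more than the floor of 3 counts in each head library.

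In the germline, betaTub85D, the tubulin of meiotic spindles and sperm tails, had 7.51 and 3.04 CPM in male heads, against 1270.0 and 1003 CPM in male bodies (log2 fold change -7.76 ± 1.43 SE, adjusted p = 0.00176). loopin-1 and S-Lap1, leucyl aminopeptidases of the sperm tail, had 8.7 and 1.46 CPM in male heads, against 1794 and 1162 CPM in male bodies for loopin-1, and 11.3 and 2.48 CPM in male heads, against 1704 and 1133 CPM in male bodies for S-Lap1. bgcn, which acts with bam to start differentiation of spermatogonia, had 0.327 and 0.316 CPM in male heads, against 32.4 and 33 CPM in male bodies (log2 fold change -6.66 ± 0.46 SE, adjusted p = 2.04e-05), and topi, a meiotic arrest gene, had 2.61 and 0.949 CPM in male heads, against 20.0 and 17.1 CPM in male bodies. The exception was bol, a meiotic regulator of the DAZ family, which had 881 and 1024 CPM in male heads, against 1000.0 and 963 CPM in male bodies and was not called. twe, the meiotic Cdc25 phosphatase, had 2.85 and 2.44 CPM in male heads, against 56.3 and 43.1 CPM in male bodies (log2 fold change -4.23 ± 0.43 SE, adjusted p = 9.28e-05).

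Y-linked fertility genes were lower in 9 of 12 cases with 0 higher (median -5.42), 75% lower beside 30.6% of all genes. With at least 10 counts in each of the 4 libraries 2 of 5 were lower. CCY had 0.564 and 0.0527 CPM in male heads, against 72 and 29.6 CPM in male bodies, and kl-2, a dynein heavy chain of the sperm tail, had 0.267 and 0.123 CPM in male heads, against 15.7 and 14.1 CPM in male bodies (log2 fold change -6.31 ± 0.94 SE, adjusted p = 0.00062). kl-5, ORY and Ppr-Y were not called. Head library 1 held 63.4, 25.9 and 88.3 CPM of them and head library 2 6.01, 2.39 and 8.07. Female heads, which have no Y chromosome, held 41.8 and 6.14 CPM of kl-5, 17.1 and 0.481 CPM of ORY and 62.6 and 1.79 CPM of Ppr-Y in the same order of libraries. Counts on these 3 genes, which have very large introns, were thus also found in flies without a Y chromosome, and those in male heads cannot be read as Y expression.

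Digestive enzymes were lower in heads nearly throughout. Of 30 digestive proteases 29 were lower (median -7.36), and of 11 maltases and amylases 10 (-7.29), and 0 of either were higher. The shares called lower were 96.7% and 90.9%, beside 30.6% of all genes. At or under 3 counts in both head libraries were 3 of the proteases and 1 of the maltases and amylases. With at least 10 counts in each of the 4 libraries, 19 of 19 and 6 of 7 were lower. The serine proteases Jon99Ciii (3R:29922216-29923455, plus strand, dm6) and Jon99Cii, near-identical neighbours whose reads the counting could have split between them, had 31.3 and 23.3 CPM in male heads, against 3718 and 8407 CPM in male bodies for Jon99Ciii (log2 fold change -7.79 ± 0.84 SE, adjusted p = 0.000123), and 16.3 and 11.7 CPM in male heads, against 1955 and 3764 CPM in male bodies for Jon99Cii. alphaTry, a midgut trypsin, had 6.09 and 5.31 CPM in male heads, against 840.1 and 2129 CPM in male bodies (log2 fold change -8.03 ± 1.12 SE, adjusted p = 0.000443). The amylase Amy-p and the maltase Mal-A1 had 9.62 and 7.98 CPM in male heads, against 852 and 1910.5 CPM in male bodies for Amy-p, and 10.2 and 7.78 CPM in male heads, against 492 and 1372 CPM in male bodies for Mal-A1. All of these were higher in body 2 than in body 1, opposite to the seminal fluid genes Sfp60F and EbpII. Mal-A5 had 63.4 and 69.7 CPM in male heads, against 70.0 and 101 CPM in male bodies and was not called. The peptidoglycan amidases PGRP-SC2 and PGRP-SC1a, made in the gut, had 1.6 and 0.896 CPM in male heads, against 111 and 153 CPM in male bodies for PGRP-SC2, and 0.594 and 0.492 CPM in male heads, against 52.9 and 72.3 CPM in male bodies for PGRP-SC1a, and the lysozyme LysX had 0.237 and 0.141 CPM in male heads, against 4.96 and 5.85 CPM in male bodies.

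Malpighian tubule genes were lower in 10 of 15 cases and higher in 3 (median -1.97). These are 66.7% and 20%, beside 30.6% and 20.9% of all genes. Uro, urate oxidase, which is made only in the tubules, had 0.445 and 0.228 CPM in male heads, against 54 and 59.4 CPM in male bodies (log2 fold change -7.43 ± 0.60 SE, adjusted p = 3.35e-05), and the zinc transporter ZnT35C had 1.69 and 1.44 CPM in male heads, against 55.8 and 70.4 CPM in male bodies (log2 fold change -5.33 ± 0.30 SE, adjusted p = 1.45e-05). The chloride channel ClC-a, the cotransporter Ncc69 and the leucokinin receptor Lkr, which neurons and glia also use, were called higher, with 259.6 and 193 CPM in male heads, against 76.6 and 91 CPM in male bodies for ClC-a, 107 and 112 CPM in male heads, against 34 and 42.9 CPM in male bodies for Ncc69, and 9.41 and 7.47 CPM in male heads, against 3.51 and 3.28 CPM in male bodies for Lkr, and none of the 3 was called without male body 1, at log2 fold changes of 0.77 with an adjusted p of 0.167, 0.81 with an adjusted p of 0.105, and 0.82 with an adjusted p of 0.311. Lkr was not called without male body 2 (adjusted p of 0.0583) or without male head 1 (0.125) either. Oenocyte and hydrocarbon genes were lower in 6 of 10 cases (median -1.73), 60% beside 30.6% of all genes. The fatty acid synthases FASN2 and FASN3 had 3.24 and 2.67 CPM in male heads, against 302 and 419 CPM in male bodies for FASN2 (log2 fold change -6.93 ± 0.78 SE, adjusted p = 0.000152), and 5.64 and 2.41 CPM in male heads, against 359.7 and 282 CPM in male bodies for FASN3, and the elongase Elo68alpha had 0.505 and 0.0703 CPM in male heads, against 111 and 97.4 CPM in male bodies. Fad2, a desaturase of female pheromones, was the 1 member called higher, at 1.96 and 0.931 CPM in male heads, against 0.319 and 0.144 CPM in male bodies, and it lost the call without male body 1, male body 2 or male head 1 (adjusted p from 0.0974 to 0.159).

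Most fat body genes were not called. Of 20, 1 was higher and 5 were lower, and the median was -0.011. These are 5% and 25%, beside 20.9% and 30.6% of all genes. The 5 lower ones were the larval storage protein genes Lsp1alpha, Lsp1beta and Lsp1gamma, and Fbp1 and Fbp2. Lsp1alpha, Lsp1gamma and the receptor Fbp1 that takes hexamerins up had 3.59 and 4.45 CPM in male heads, against 68.4 and 74.2 CPM in male bodies for Lsp1alpha, 4.69 and 5.54 CPM in male heads, against 103 and 156 CPM in male bodies for Lsp1gamma, and 10.7 and 12.2 CPM in male heads, against 309 and 358 CPM in male bodies for Fbp1 (log2 fold change -4.86 ± 0.57 SE, adjusted p = 0.000182). The alcohol dehydrogenase-like storage protein Fbp2 had 9.2 and 8.08 CPM in male heads, against 259 and 241 CPM in male bodies. Genes of adult fat body metabolism were not called, with 2288 and 3400.1 CPM in male heads, against 1224 and 1596 CPM in male bodies for apolpp, the lipid carrier of the haemolymph, 675 and 1022 CPM in male heads, against 517 and 853 CPM in male bodies for FASN1, fatty acid synthase, and 202 and 304 CPM in male heads, against 204 and 308 CPM in male bodies for Lsd-2, a perilipin. Cyp4d21, a P450 of male courtship named sxe1 that is made in fat body of the head, was higher with 181 and 167 CPM in male heads, against 14.4 and 12.4 CPM in male bodies (log2 fold change 3.70 ± 0.56 SE, adjusted p = 0.000673). Without male body 2, 3 fat body genes were called higher, and Lsp1beta lost its call without male body 2 (-0.89 with an adjusted p of 0.148), male head 1 (-1.24 with an adjusted p of 0.117) and male head 2 (-1.40 with an adjusted p of 0.0503).

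Of 29 sarcomere and muscle energy genes 1 was higher and 7 were lower, with a median of -0.81. These are 3.4% and 24.1%, beside 20.9% and 30.6% of all genes. With at least 10 counts in each of the 4 libraries 14 were called lower, and with DESeq2's Wald test 11. Act88F, the actin of the indirect flight muscle, had 35.7 and 32.4 CPM in male heads, against 743 and 3045 CPM in male bodies (log2 fold change -5.80 ± 0.85 SE, adjusted p = 0.000577), with body 2 above body 1. Act79B, the actin of leg and jump muscles, had 852 and 82.3 CPM in male heads, against 3162 and 5318 CPM in male bodies, where head 1 lay far above head 2, and its call was lost without male body 2 (log2 fold change -2.50 with an adjusted p of 0.103) and without male head 2 (-2.03 with an adjusted p of 0.0979). The actin Act87E had 662 and 550.0 CPM in male heads, against 1613 and 2068 CPM in male bodies (log2 fold change -1.60 ± 0.36 SE, adjusted p = 0.00442), while Act57B had 3009 and 3744 CPM in male heads, against 1404 and 2685 CPM in male bodies and was not called. TpnC25D, a troponin C, was higher in heads with 508 and 407 CPM in male heads, against 61.9 and 50.2 CPM in male bodies (log2 fold change 3.03 ± 0.42 SE, adjusted p = 0.000439). The shared components Mhc, the single muscle myosin heavy chain gene, and Mlc2, a myosin light chain, had 4391 and 3214 CPM in male heads, against 4837 and 5874 CPM in male bodies for Mhc, and 5619 and 3624 CPM in male heads, against 8955 and 9228 CPM in male bodies for Mlc2, and neither was called. The number of members called lower was 13 without male body 1, 4 without male body 2 and 4 without male head 2, and 2 were called higher without male body 2.

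Of 78 cuticle proteins tested, 8 were higher, 24 lower and 46 not called (median -0.24). The shares called were 10.3% and 30.8%, beside 20.9% and 30.6% of all genes, and among members that overlap no other gene 15 were higher and 19 lower. Cpr49Ag had 130.4 and 122 CPM in male heads, against 0.213 and 0.216 CPM in male bodies (log2 fold change 9.18 ± 0.49 SE, adjusted p = 1.45e-05) and Cpr72Ec 136 and 93 CPM in male heads, against 0.511 and 0.271 CPM in male bodies. Cpr49Ab and Cpr49Ac, genes of the same cluster as Cpr49Ag, lay on the other side, with 4.87 and 2.13 CPM in male heads, against 424 and 414 CPM in male bodies for Cpr49Ab (log2 fold change -6.91 ± 1.13 SE, adjusted p = 0.000978), and 2.43 and 1.99 CPM in male heads, against 55.3 and 58.7 CPM in male bodies for Cpr49Ac. Cpr92F and Acp65Aa, an adult cuticle protein, had 87.6 and 104 CPM in male heads, against 1020.4 and 1857 CPM in male bodies for Cpr92F, and 7.63 and 4.04 CPM in male heads, against 719 and 917 CPM in male bodies for Acp65Aa. Cytochrome P450 genes were higher in 5 and lower in 18 of 61 cases, 8.2% and 29.5%, and 11 were higher and 10 lower among those that overlap no other gene. Cyp4c3 had 17.9 and 16.8 CPM in male heads, against 1.47 and 1.06 CPM in male bodies, and Cyp6a18 0.653 and 0.176 CPM in male heads, against 79.2 and 109 CPM in male bodies (log2 fold change -7.89 ± 0.79 SE, adjusted p = 8.2e-05). Cyp312a1 had 1.37 and 1.02 CPM in male heads, against 231 and 215 CPM in male bodies, and 276 and 255 CPM in testes. Leaving out 1 library moved the P450 calls to between 2 and 9 higher and between 8 and 24 lower, with 2 higher without male body 1, 9 higher without male body 2, and 8, 8 and 10 lower without male body 2, male head 1 and male head 2.

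Of 27 antimicrobial and immune-induced peptides 0 were higher and 4 lower (median 0.30), and with the replicate block 3 were higher. The 14.8% called lower stood beside 30.6% of all genes. In a fit of only the 4 libraries compared 5 of 26 were higher, among members that overlap no other gene 5 of 22, and with no filter on low counts 4 of 30. CecA1, a cecropin, had 0.237 and 0.299 CPM in male heads, against 34.7 and 23.7 CPM in male bodies (log2 fold change -6.74 ± 1.32 SE, adjusted p = 0.00237) and 53.2 and 23.5 CPM in testes. Of 9 peptidoglycan recognition proteins 3 were lower and 1 was higher, the membrane protein PGRP-LA with 75.6 and 60.8 CPM in male heads, against 13.4 and 13.7 CPM in male bodies (log2 fold change 2.33 ± 0.32 SE, adjusted p = 0.000401). The shares of these 9 recognition proteins, 11.1% higher and 33.3% lower, stood beside 20.9% and 30.6% of all genes. Haemocyte genes were higher in 2 of 12 cases (16.7%, beside 20.9% of all genes) and lower in 0, or 1 with the block. lz, a Runx factor of crystal cells that also acts in the eye, had 23.8 and 16.6 CPM in male heads, against 0.0638 and 0.271 CPM in male bodies (log2 fold change 6.86 ± 1.09 SE, adjusted p = 0.000847), whereas the haemocyte genes Hml and NimC1 had 30.3 and 55.9 CPM in male heads, against 59 and 80.4 CPM in male bodies for Hml, and 7.6 and 17 CPM in male heads, against 17.8 and 23.5 CPM in male bodies for NimC1, and were not called. Without male body 1, 2 antimicrobial peptides were called lower, and without male head 2, 2 lower and 2 higher. With male body 1 left out, 1 haemocyte gene was higher and 2 were lower.

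Few genes of the ribosome and the respiratory chain were called, and the called ones included paralogs present in the testis libraries. Of 89 cytosolic ribosomal protein genes 0 were higher and 7 lower (median -0.072), 7.9% lower beside 30.6% of all genes. Among the lower ones were RpL22-like, RpL10Aa and RpS19b, with 0.683 and 0.0703 CPM in male heads, against 71.5 and 47.6 CPM in male bodies for RpL22-like, 0.327 and 0.0703 CPM in male heads, against 68.7 and 33.7 CPM in male bodies for RpL10Aa, and 0.119 and 0 CPM in male heads, against 23 and 22.3 CPM in male bodies for RpS19b. The testis libraries held 165 and 122 CPM of RpL22-like, 171 and 91.7 CPM of RpL10Aa and 62.9 and 52.5 CPM of RpS19b. Of 80 nuclear respiratory chain genes 0 were higher and 14 lower (median -0.34). The 17.5% called lower stood beside 30.6% of all genes. COX4L and COX7AL, copies of cytochrome oxidase subunits, had 1.28 and 0.844 CPM in male heads, against 190.5 and 128 CPM in male bodies for COX4L (log2 fold change -7.24 ± 1.18 SE, adjusted p = 0.000959), and 0.386 and 0.0879 CPM in male heads, against 84 and 51.9 CPM in male bodies for COX7AL. In testes there were 496 and 314 CPM of COX4L and 228 and 141 CPM of COX7AL. Without male body 1, 36 respiratory chain genes were called lower. Without male body 2, 2 ribosomal and 3 respiratory chain genes were called higher. The medians of both lists were above 0 without male body 2, at 0.35 for the ribosomal and 0.17 for the respiratory chain genes, without male head 2, at 0.22 and 0.031, and among genes that overlap no other, at 0.55 and 0.16. The median of all genes in these 3 settings was 0.25, 0.18 and 0.17. With no filter on low counts it was 0.26 for the ribosomal genes, -0.011 for the respiratory chain genes and 0.19 for all genes. Mitochondrial ribosomal proteins had 2 higher and 0 lower of 71 (median 0.25), 2.8% higher beside 20.9% of all genes, and 4 higher with the block. Their median was -0.21 without male body 1 and 0.55 without male body 2.

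The share of proteasome genes called lower in heads depended on the setting. Of 43 subunit genes 25 (58.1%) were lower and 0 higher, beside 30.6% and 20.9% of all genes. The median was -1.18, and -1.71 in females. With no filter on low counts 17 of 44 were lower. Among members that overlap no other gene 10 of 26 were lower, beside 2598 of all 7862 such genes. With 1 library left out the median lay between -1.77 (without male body 1) and -0.84 (without male body 2). The core subunit Prosbeta7 had 54.7 and 55.3 CPM in male heads, against 171 and 171 CPM in male bodies (log2 fold change -1.64 ± 0.30 SE, adjusted p = 0.00178), and the regulatory subunits Rpn6 and Rpn13 had 98.7 and 96.1 CPM in male heads, against 242 and 217 CPM in male bodies for Rpn6, and 73.6 and 80.2 CPM in male heads, against 164 and 185 CPM in male bodies for Rpn13. Of the pair, Rpn6 lost its call without male head 2 (-0.94 with an adjusted p of 0.069), as did Rpn13 (-0.96 with an adjusted p of 0.0358, and -0.79 with an adjusted p of 0.0453 without male body 2), and 14 subunits were called lower without male head 2. With no filter on low counts neither Rpn6 nor Rpn13 was called (log2 fold changes -0.91 and -0.85). Genes of cell division were lower in 11 of 20 cases with 0 higher (median -1.61), 55% lower beside 30.6% of all genes. The kinase polo and the cyclin CycB had 4.07 and 1.51 CPM in male heads, against 98.7 and 78.9 CPM in male bodies for polo (log2 fold change -5.0 ± 0.55 SE, adjusted p = 0.000134), and 13.2 and 7.71 CPM in male heads, against 65 and 55 CPM in male bodies for CycB (log2 fold change -2.52 ± 0.34 SE, adjusted p = 0.00039). Of 22 heat shock genes 3 were higher and 5 lower, or 13.6% and 22.7%, beside 20.9% and 30.6% of all genes. With no filter on low counts 8 were higher, and among members that overlap no other gene 7 of 17. The chaperonins Hsp60B and Hsp60C had 1.69 and 0.123 CPM in male heads, against 449 and 266 CPM in male bodies for Hsp60B, and 3.71 and 1.07 CPM in male heads, against 792 and 529 CPM in male bodies for Hsp60C. The testis libraries held 1117 and 691 CPM of Hsp60B and 1807 and 1368 CPM of Hsp60C. The number of heat shock genes called higher was 0 without male body 1, 1 without male head 1 and 5 without male head 2, and 3 were called lower without male head 2. Of 13 glycolytic genes 1 was lower (Ldh) and 0 were higher, 7.7% lower beside 30.6% of all genes. With the replicate block 1 was higher. The median of these genes was -0.22, -1.11 without male body 1 and 0.31 without male body 2. Of 15 egg shell and yolk genes 1 was higher (Yp3), 6.7% beside 20.9% of all genes. The log2 fold change of Yp3 was 1.58, and 1.06 without male body 1.

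Genes with large changes also lay outside these lists. On the side of the head, CG30050 (2R:12408954-12409735, plus strand) had 12.4 and 8.08 CPM in heads and 0 counts in both body libraries, at least 174-fold more. CG7829 had 119.7 and 102 CPM in male heads, against 0.106 and 0.126 CPM in male bodies (log2 fold change 9.86 ± 0.50 SE, adjusted p = 1.45e-05), and CG32726 and CG13071 had 27.1 and 35.3 CPM in male heads, against 0.0426 and 0 CPM in male bodies for CG32726, and 16.7 and 12.1 CPM in male heads, against 0 and 0.018 CPM in male bodies for CG13071. On the side of the body, CG4073, CG34210, CG34298, PpY-55A, CG31496 and tbrd-2 had 0 counts in both head libraries. Measured against the floor of 3 counts in each head library, they were at least 447-, 397-, 393-, 351-, 271- and 266-fold higher in bodies. All 6 had more in testes than in bodies, from 40.6 to 79.2 CPM on average. PpY-55A is a testis protein phosphatase and tbrd-2 a testis bromodomain protein.

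Abundant genes that were called included Atpalpha, the catalytic subunit of the sodium pump, with 13753 and 11662 CPM in male heads, against 1864 and 2278 CPM in male bodies (log2 fold change 2.62 ± 0.34 SE, adjusted p = 0.000295), nrv3, a neuronal beta subunit of the pump, with 4712 and 4089.5 CPM in male heads, against 285 and 246 CPM in male bodies (log2 fold change 4.05 ± 0.37 SE, adjusted p = 5.38e-05), and calmodulin, Cam, with 10913 and 8070.1 CPM in male heads, against 1503 and 1177 CPM in male bodies (log2 fold change 2.82 ± 0.38 SE, adjusted p = 0.000368). IA-2, a membrane protein of dense-core vesicles, and Sap47, a synapse-associated protein, had 5569 and 6341 CPM in male heads, against 225 and 306 CPM in male bodies for IA-2, and 4213 and 4002 CPM in male heads, against 245 and 243 CPM in male bodies for Sap47. On the side of the body, CG17097 and CG4836 had 11.3 and 4.73 CPM in male heads, against 2724 and 3765 CPM in male bodies for CG17097, and 14.3 and 2.64 CPM in male heads, against 3339 and 2216 CPM in male bodies for CG4836. In testes there were 5233 and 10044 CPM of CG17097 and 7231 and 5936 CPM of CG4836. Pof, whose protein binds chromosome 4, had 19.7 and 15.3 CPM in male heads, against 601 and 476 CPM in male bodies (log2 fold change -4.95 ± 0.28 SE, adjusted p = 1.45e-05).

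The calls were unevenly spread over gene length and chromosomes. Genes called higher spanned a median of 6677 bases from start to end and genes called lower a median of 1366.5, against 2227 for all tested. The tested genes were divided by span into 4 classes of equal size. In the longest class 48.3% were higher and 10.1% lower, and in the shortest class 6.66% were higher and 52.7% lower. The length given for each gene equals its whole span, and whether reads in introns were counted is not given in the sources used here, so the part of intronic reads in these shares was not tested. On chromosome 4, 57 of 94 genes (60.6%) were higher and 6 lower, with a median span of 8769.5 bases. The X had 27% higher and 23.5% lower, and the 4 large autosome arms between 17.5 and 20.3% higher and between 30.4 and 35.8% lower. On the Y, 0 of 40 were higher and 29 lower. Of 1181 noncoding RNA genes 10.5% were higher and 56.5% lower. These shares are descriptions, and span, chromosome and kind of gene were not separated.

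**Figure D4:**
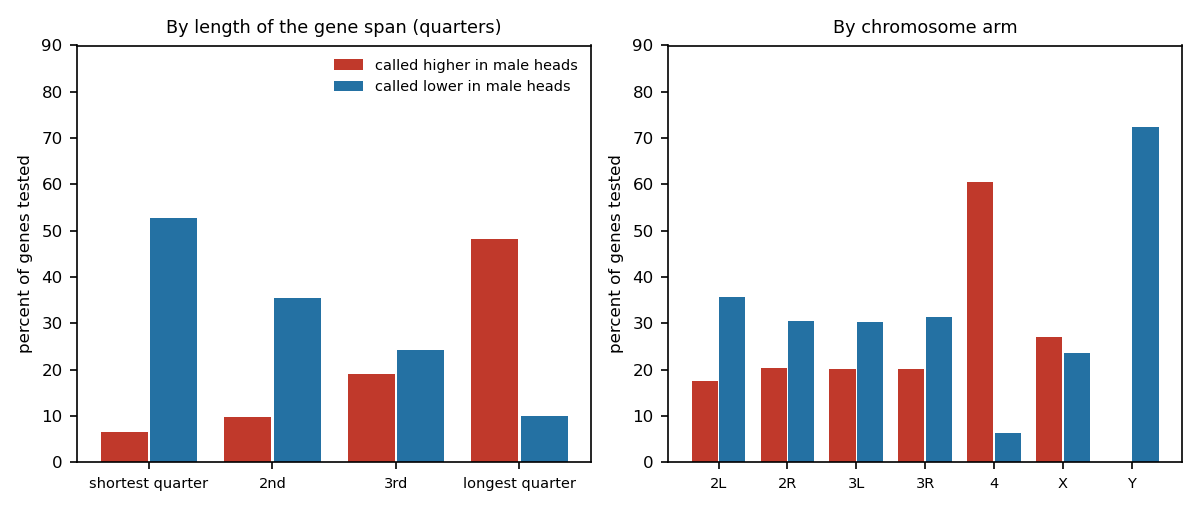
Percent of tested genes called higher (red) and lower (blue) in male heads than in male bodies, by 4 classes of gene span (left) and by chromosome arm (right). The share called higher is 6.66% in the shortest and 48.3% in the longest class, and chromosome 4 has the highest share of the arms with 60.6%.

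The same comparison in females shares no library with that in males. Of the 2639 genes higher in male heads than male bodies, 1652 (62.6%) were also called higher in female heads than female bodies and 130 were lower there. Over all genes tested, 2416 (19.2%) were higher in female heads and 3228 (25.6%) lower. Of the 3858 genes lower in male heads, 1232 (31.9%) were lower in female heads too and 87 were higher. The difference between the 2 log2 fold changes, males minus females, was called for 4386 genes (34.8%), 2406 with the more positive value in males and 1980 with the more negative one. With DESeq2's size factors these numbers were 1509 and 2863, and with its Wald test 1685 and 3625, so which direction held more genes depended on the scaling. Among the genes lower in male heads the median log2 fold change was -6.55 in males and -1.17 in females, and among those higher it was 2.17 and 2.0. The difference was called for 2474 genes without female head 1 and for 2737 without male head 2. With male body 1 left out it was more positive in males for 631 genes and more negative for 2440, and without female body 2 for 832 and 2362.

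Beside the 34.8% of all genes, a difference between the sexes was called for 4 of 24 phototransduction genes, 2 of 24 genes of vesicle release and 2 of 30 digestive proteases. It was called for 11 of 37 neurotransmitter receptors, 16 of 53 adhesion proteins of the dpr, DIP, beat and side families, 4 of 11 retinal transcription factors, 5 of 15 eye pigment genes and 3 of 11 genes of photoreceptor and lens structure. The median log2 fold change of the rhodopsins was 9.17 in males and 8.84 in females, and that of the digestive proteases -7.36 in males and -8.23 in females. The male reproductive lists differed, with -8.39 in males and -0.95 in females for the seminal fluid proteins and 30 of 42 members with a called difference, and -8.20 and -1.04 for sperm tail and chromatin genes with 24 of 29. Female libraries also held counts of such genes. The accessory gland markers summed to 28.2 and 3.52 CPM in female heads and 71.4 and 3.02 CPM in female bodies, library 1 first, beside 22.3 and 2.86 CPM in male heads. The part of such traces in the female medians was not tested, and these medians cannot be read as expression in females. Cell division genes had a median of -1.61 in males and -5.66 in females, with 17 of 20 differences called, all with the more positive value in males, and cytosolic ribosomal proteins -0.072 in males and -1.34 in females, with 20 of 89 called, 19 of them with the more positive value in males.

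Drep2, a CIDE-domain protein of the synapse, went in opposite directions in the 2 sexes. It had 194 and 187 CPM in male heads, against 9.28 and 10.2 CPM in male bodies (log2 fold change 4.29 ± 0.27 SE, adjusted p = 1.65e-05), and 163 and 155 CPM in female heads, against 312 and 373 CPM in female bodies, a difference of 5.40 ± 0.35 SE, adjusted p = 0.000126. The cyclin-dependent kinase Cdk4 had 16.5 and 16.4 CPM in male heads, against 4.74 and 4.24 CPM in male bodies, and 15.7 and 13.5 CPM in female heads, against 65.1 and 61.3 CPM in female bodies (difference 3.99 ± 0.33 SE, adjusted p = 0.000273), and aub, a piRNA protein of the germline, had 4.1 and 3.46 CPM in male heads, against 7.83 and 7.72 CPM in male bodies, and 2.64 and 2.04 CPM in female heads, against 94.7 and 112 CPM in female bodies (difference 4.42 ± 0.34 SE, adjusted p = 0.000223). The call of aub in males was lost without male body 2 (-0.76 with an adjusted p of 0.0961) and without male head 2 (-0.64 with an adjusted p of 0.186). The other way, kmg, a testis repressor of somatic promoters, had 1.07 and 1.42 CPM in male heads, against 12.7 and 14 CPM in male bodies, and 0.903 and 1.14 CPM in female heads, against 0.211 and 0.119 CPM in female bodies (difference -6.03 ± 0.57 SE, adjusted p = 0.000349), and sit, a fatty acid elongase, had 3.3 and 5.87 CPM in male heads, against 49.1 and 69.2 CPM in male bodies, and 5.84 and 9.11 CPM in female heads, against 1.4 and 0.751 CPM in female bodies (difference -6.48 ± 0.62 SE, adjusted p = 0.000349). CG14995 had 253 and 202 CPM in male heads, against 2693 and 1879 CPM in male bodies, and 277 and 215 CPM in female heads, against 106 and 81.7 CPM in female bodies (difference -4.72 ± 0.43 SE, adjusted p = 0.00033). The testis libraries held 24.8 and 33.8 CPM of kmg and 5919 and 5202 CPM of CG14995, and the ovary libraries 472 and 571 CPM of Drep2 and 172 and 177 CPM of aub.

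**Figure D5:**
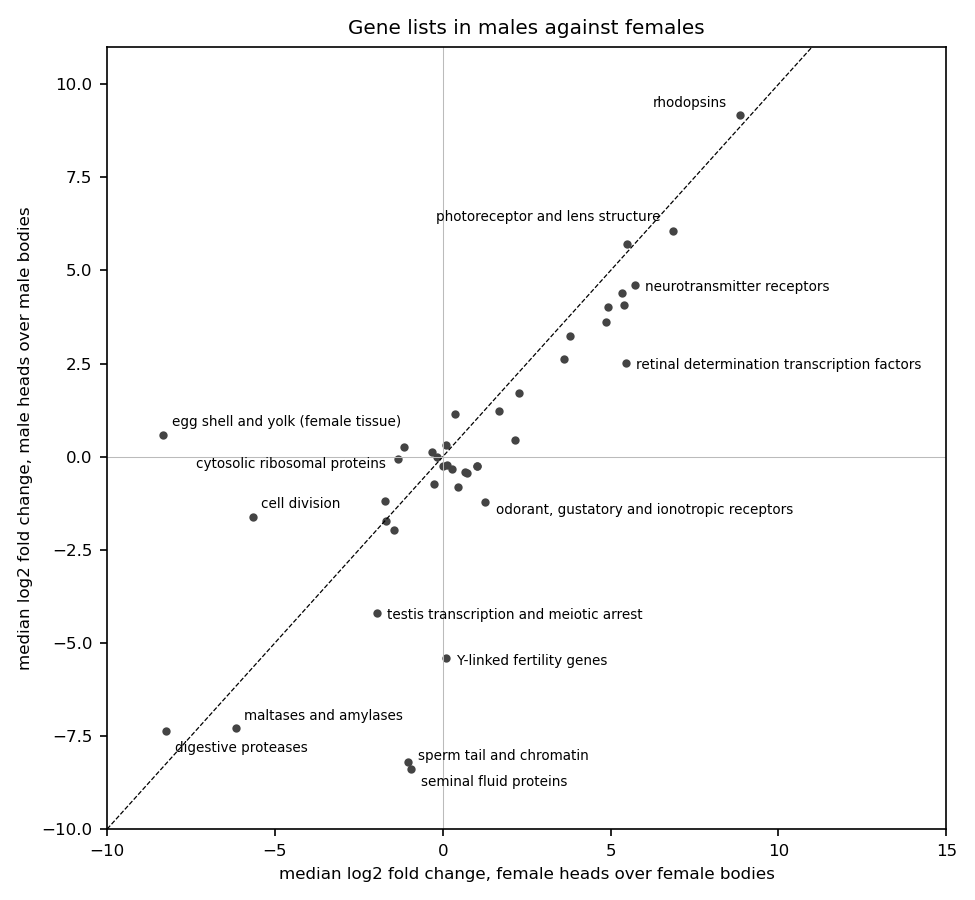
Median log2 fold change of each gene list in males (vertical axis, male heads over male bodies) against females (horizontal axis, female heads over female bodies), with a dashed line of equal values. Rhodopsins and digestive proteases lie near the line, seminal fluid proteins (-8.39 in males, -0.95 in females) and sperm genes below it, and cell division (-1.61 and -5.66) and egg shell genes above it.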

How the data were processed

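PolyA RNA of 18 libraries was sequenced, 12 of them of adult parts. The deposited table holds counts of reads per gene, which the authors made after trimming with cutadapt 1.15 and alignment to dm6 with TopHat2 2.1.1, per the submitters' processing notes and the study's methods. The counting tool is not given in the sources used here. Gene length in the table equals the whole span with introns, and 3487 of 17825 genes that lie wholly within other genes have 0 counts in all libraries and were not measured. Library totals are given above, and their size limits counting error only. Library strandedness in counting is not known, so overlapping and antisense genes cannot be told apart.

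Counts were fitted as deposited with edgeR 4.0.16 in R 4.3.3 (TMM, filterByExpr with a minimum count of 10, glmQLFit and glmQLFTest, group means over the 12 adult libraries, Benjamini-Hochberg adjustment). The SE of a log2 fold change was taken from the F statistic, and no design term was used for the replicate number. The replicate number was tested as a block because libraries of the same number deviated together in all 15 pairs of groups, with correlations from 0.279 to 0.672 (0.331 for male heads and male bodies). Alternatives were DESeq2 1.42.0 (Wald test, size factors), upper-quartile scaling, other filters, genes without overlap, only the libraries compared, the block and each library left out. Counts were simulated for this comparison with 12460 genes, of which 12260 were left unchanged. The test called 1 of 68 genes changed by 1 on the log2 scale. It called 21 of 66 changed by 2 and 53 of 66 changed by 4. It also called 10 of the 12260 unchanged genes, which made up 11.8% of its calls. In the data 51.6% of genes were called, far more than were changed in the simulation, so these shares do not carry over to the data.

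For each of 42 gene lists, up to 5 called members per direction with the highest mean CPM were named, with every rhodopsin and Hox gene, up to 10 genes per direction by fold and by level, and up to 10 per direction for the difference between sexes. Members not called, and Orco, were named after their values were seen. The lists and members were chosen with earlier results of these data known. Symbols came from an Ensembl annotation, which held 17742 of the identifiers. Replicate numbers follow the columns of the count table, and in the adult groups the totals run in the opposite order to the read totals the study lists by number, which does not touch the groups.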

Additional observations from a re-analysis of the deposited data

Results flagged for a closer look

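The difference between males and females in the head-body change was called for 4386 genes by edgeR's quasi-likelihood test with Benjamini-Hochberg adjustment, 2406 more positive and 1980 more negative in males. Genes named above with such a difference are given here with the males' minus the females' log2 fold change in brackets. Male reproductive genes were more negative in males, with Ebp (-7.80), Acp26Aa (-7.32), betaTub85D (-7.29), bgcn (-4.90), topi (-3.03), bol (-2.30), loopin-1 (-7.09), S-Lap1 (-7.16), kl-2 (-6.36) and kmg (-6.03). Paralogs and other genes present in the testis libraries were also more negative, with COX4L (-6.64), COX7AL (-8.13), Hsp60B (-7.66), Hsp60C (-7.0), CG17097 (-7.74), CG4836 (-7.15), CG14995 (-4.72), Cyp312a1 (-7.08), CecA1 (-6.27), Gr59a (-9.20), Obp56f (-8.93), Obp99a (-8.11), Elo68alpha (-6.31), sit (-6.48) and Pof (-3.53). For CG31496 (-11.72), CG34210 (-13.73), CG34298 (-11.01), CG4073 (-13.14) and PpY-55A (-12.37) both male head libraries held 0 counts, so these fitted values depend on the prior count and are no bounds. Gr59a lay under the floor of 3 counts in both male head libraries, so its value depends on the prior count too. Genes of eye, head and muscle with a more negative value in males were Rh4 (-1.72), boss (-2.39), ninaD (-2.59), Optix (-6.52), Clk (-2.48), Dfd (-2.42), pb (-3.44), Obp44a (-4.30), Act87E (-1.45), TpnC25D (-1.89) and Cpr49Ac (-1.50). The value was more positive in males for Drep2 (5.40), Cdk4 (3.99), CycB (5.56), polo (2.87), aub (4.42), Fad2 (11.21), ZnT35C (1.95), Lsd-2 (1.59) and Srrm234 (1.36). The cause of these differences was not tested.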

How the results depend on the processing

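Of 269 named genes that were called, 200 kept call and direction under every setting run, and 0 turned round. The number of genes lower in heads was 2019 when 10 counts were required in each of the 4 libraries, a filter that removes genes at 0 in heads. The difference between the sexes was called for 2804 genes among those that overlap no other gene, where fewer genes were tested. Leaving out 1 library moved the genes higher in heads to between 1363 (without male body 1) and 2970 (without male body 2), the genes lower to between 2989 (without male head 2) and 4328 (without male body 1), and the sex difference to between 2474 (without female head 1) and 4338 genes. The cause was not tested. With the replicate number as a block, 2816 genes were higher, 3990 lower and 5539 differed between the sexes. All 269 called named genes kept their call under the block, pb gained one, and the list counts it moved by over 1.5 times stand with their lists. DESeq2's Wald test called 2407 higher and 3913 lower. Of 1092 counts of list members under alternatives, 954 were within 1.5 times of the reported count and 138 were not. In the simulated counts described above, where few genes were changed, few of those changed by 1 on the log2 scale were called. The share missed in these data was not measured, and genes not called may differ by that much.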

Other observations

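Libraries of 1 group differed strongly in a few genes. Scp1, a sarcoplasmic calcium-binding protein, had 411 and 31.9 CPM in male heads and 339 and 40.1 CPM in female heads, replicate 1 first, and Act79B had 852 and 82.3 CPM in male heads and 659.8 and 123 CPM in female heads. Of 3473 genes with a mean of at least 50 CPM in male heads, these were the 2 with at least 4-fold more in replicate 1, and 0 had at least 4-fold more in replicate 2. In male bodies 1 of 3305 such genes had at least 4-fold more in replicate 1 and 6 in replicate 2. Higher in body 2 were Act88F, CG13731, CG15021 and the alpha-mannosidase genes LManIII, LManV and LManVI. These genes were singled out after their values were seen.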
